A study of Homo sapiens with 9 samples.

Results

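Of the 39 protein-coding HOX genes, 38 were examined in polyadenylated RNA from a pair of human esophageal squamous cell carcinoma lines. The genes were chosen by symbol, as protein-coding genes listed in both count tables that are named HOXA, HOXB, HOXC or HOXD followed by a number. The 38 are among 66338 gene identifiers in either table, with 10 members in HOXA, 10 in HOXB, 9 in HOXC and 9 in HOXD. By GENCODE 29 on GRCh38 these HOXA genes lie on chromosome 7 from 27100354 to 27200106 (99.75 kb), the HOXB genes on chromosome 17 from 48528526 to 48729178 (200.7 kb), the HOXC genes on chromosome 12 from 53938765 to 54056030 (117.3 kb) and the HOXD genes on chromosome 2 from 176092891 to 176190907. HOXA and HOXB genes are transcribed from the reverse strand and HOXC and HOXD genes from the forward strand.

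The study asked which transcripts change when KDM2A is knocked down. The groups were TE11 cells labelled as carrying an shRNA against KDM2A (2 libraries), TE11 cells with the control shRNA, shNC (3 libraries), Kyse150 cells with the KDM2A shRNA (2 libraries) and Kyse150 cells with shNC (2 libraries). Both lines were grown in the same RPMI medium with serum, and the shRNA was brought in by lentivirus, so all 4 groups carry a viral construct. The labels name no shRNA other than these, so effects of the KDM2A shRNA that do not pass through KDM2A cannot be told apart from those that do, and they speak of 3 independent replicates without saying what was repeated. The p-values thus cover only how far these libraries differ within a group, and part of that may be technical.

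HOX genes encode homeodomain transcription factors that give cells their position along the body axis. Their order on the chromosome follows the order in which they are used, from paralog group 1 at the anterior end to group 13 at the posterior end, and adult tissues keep part of that pattern. The clusters are kept silent by Polycomb complexes and active by trithorax-group enzymes such as KMT2A. KDM2A removes methyl groups from lysine 36 of histone H3 and carries a CXXC zinc finger that binds unmethylated CG dinucleotides, which are dense at HOX promoters.

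Promoter sequence is shown for 4 HOXA genes that behaved differently within 1 cluster: HOXA4 and HOXA7, whose transcripts moved in opposite directions in Kyse150, and HOXA9 and HOXA13, which set the TE11 control libraries apart. Each run is the 250 bases before a RefSeq transcript start on GRCh38.p14, read 5′ to 3′ on the reverse strand, with every CG in capitals. The windows are chr7:27130758-27131007 for HOXA4, chr7:27156676-27156925 for HOXA7, chr7:27165538-27165787 for HOXA9 and chr7:27200092-27200341 for HOXA13.
HOXA4: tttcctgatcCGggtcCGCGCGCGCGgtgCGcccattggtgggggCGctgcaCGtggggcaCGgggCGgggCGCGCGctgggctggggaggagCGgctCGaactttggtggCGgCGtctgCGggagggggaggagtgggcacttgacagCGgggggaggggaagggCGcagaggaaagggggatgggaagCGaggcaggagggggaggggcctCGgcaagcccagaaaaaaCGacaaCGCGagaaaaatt
HOXA7: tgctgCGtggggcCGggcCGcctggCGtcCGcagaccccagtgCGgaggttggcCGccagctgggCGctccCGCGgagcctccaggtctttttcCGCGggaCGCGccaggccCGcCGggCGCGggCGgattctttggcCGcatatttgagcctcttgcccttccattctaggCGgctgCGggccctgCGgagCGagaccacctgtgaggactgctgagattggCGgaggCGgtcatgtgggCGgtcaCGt
HOXA9: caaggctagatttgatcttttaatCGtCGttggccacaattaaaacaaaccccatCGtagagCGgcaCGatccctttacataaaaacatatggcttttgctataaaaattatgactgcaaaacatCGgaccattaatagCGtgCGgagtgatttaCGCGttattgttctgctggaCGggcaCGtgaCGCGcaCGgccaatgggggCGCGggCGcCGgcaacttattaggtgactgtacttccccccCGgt
HOXA13: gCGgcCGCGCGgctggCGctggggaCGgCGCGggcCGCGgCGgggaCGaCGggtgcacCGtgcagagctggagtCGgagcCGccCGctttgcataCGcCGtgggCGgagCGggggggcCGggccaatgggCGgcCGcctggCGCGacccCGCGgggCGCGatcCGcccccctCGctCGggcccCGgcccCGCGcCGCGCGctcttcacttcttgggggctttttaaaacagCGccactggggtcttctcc
The HOXA4 window holds 26 CG dinucleotides, the HOXA7 window 28, the HOXA9 window 20 and the HOXA13 window 40. Fewer were found in 80.4%, 84.1%, 67.6% and 97.8% of all promoters in the table, in the same order. Among 35116 promoters of this length, 93.9% held at least 1 CG, with a median of 11. The 27 HOX entries, which cover 20 of the 38 genes, ran from 0 to 40 with a median of 19. The letters TATAAA on either strand occurred in 5 of the 27 HOX entries, the HOXA9 window among them, and in 10.7% of all promoters. The letters TGATTNAT, a PBX-HOX type of site searched on both strands, occurred in 2 of the 27 and in 2.48% of all promoters. These are matches of letters only.

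Each TE11 library held 8457767 to 12073098 gene counts and each Kyse150 library 6052883 to 7167055. Levels are given as CPM (counts scaled to 1000000 per library) on 1 TMM scale over the genes shared by both tables, so 1 CPM was about 6 to 12 counts. KDM2A itself was at 132 and 146 CPM in the libraries labelled TE11 shKDM2A, against 124, 121 and 124 CPM in TE11 shNC, and at 104 and 102 CPM in Kyse150 shKDM2A, against 169 and 171 CPM in Kyse150 shNC. The target was thus lower in the Kyse150 knockdown (log2 fold change -0.71, SE 0.07, edgeR adjusted p = 3.87e-09) but not in the TE11 libraries with the knockdown label (0.16, SE 0.07, edgeR adjusted p = 0.0335, a call lost without labelled knockdown replicate 2 at 0.10, without control replicate 2 at 0.13 and without control replicate 3 at 0.15, and also with DESeq2, upper quartile scaling, no filter and a replicate block at 0.10 to 0.16). The labels of these 2 libraries may be wrong, which was not tested, and every direction given below for TE11 rests on them. The lines also come in 2 tables made with different annotations, so line and table cannot be told apart in any comparison between them. The summed squamous epithelium markers stood at 1724 to 1775 CPM in the libraries labelled TE11 shKDM2A, 4964 to 5456 in TE11 shNC, 1786 to 1837 in Kyse150 shKDM2A and 1908 to 1985 in Kyse150 shNC, with KRT6B at 0 in all groups but TE11 shNC. Of 12 squamous markers tested in TE11, 11 were lower and 1 higher, where 42.2% of all genes were called lower and 35.9% higher. Of 10 tested in Kyse150, 6 were higher and 2 lower, where 24.8% of all genes were called higher and 23.3% lower. The 10 fibroblast markers summed to 9.30 to 9.52, 19.4 to 22.9, 20.5 to 21.1 and 11.3 to 12.8 CPM in the same order of groups. Of these 10, 5, 2, 4 and 6 were at 0, DCN in all groups but TE11 shNC. Of the 4 leukocyte markers PTPRC was at 0 in every library, and LCP1 carried the sum, at 442 and 458 CPM in the labelled TE11 knockdown, 16.7 to 18.1 in TE11 shNC, 324 and 327 in Kyse150 shKDM2A and 328 and 316 in Kyse150 shNC. The 7 columnar markers summed to 11.7 to 13.1, 12.2 to 17.2, 6.83 to 8.83 and 7.29 to 8.05 CPM in the same order of groups. Of these 7, 4, 2, 4 and 4 were at 0, CDX2 and TFF3 in every group. The 3 endothelial markers measured summed to 9.31 CPM at most. EPCAM, an epithelial marker, lay between 153 and 373 CPM in every library. Both epithelial markers listed, EPCAM and CDH1, were called lower in TE11 and in Kyse150, where 42.2% and 23.3% of all genes were. Fewer cells of a type and less RNA per cell cannot be told apart in bulk RNA, and the part of these markers in the results below was not tested.

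A gene was called detected where every library of a group held at least 1 CPM. By that rule 14 HOX genes were detected in the libraries labelled TE11 shKDM2A, 17 in TE11 shNC, 17 in Kyse150 shKDM2A and 17 in Kyse150 shNC. A further 6, 16, 7 and 7 genes held at least 1 count in a library of the group, and 18, 5, 14 and 14 were at 0 in every library. A count of 0 allows up to 0.179 CPM in the labelled TE11 knockdown, 0.0894 in TE11 shNC, 0.227 in Kyse150 shKDM2A and 0.211 in Kyse150 shNC, by counting error alone (3 counts over the group).

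In all 4 groups HOXA had the largest share of its members detected. It had 8 detected members in each TE11 group, but not the same ones: of these groups, HOXA4 and HOXA6 passed in the labelled knockdown alone, and HOXA2 and HOXA13 in TE11 shNC alone. In both Kyse150 groups the 9 members from HOXA2 to HOXA11 were detected and HOXA13 held no count. In HOXB, 4 genes (HOXB2, HOXB3, HOXB4 and HOXB7) were detected in the labelled TE11 knockdown, 2 (HOXB3 and HOXB7) in TE11 shNC and the same 4 in both Kyse150 groups. In HOXC, 2 genes (HOXC9 and HOXC13) were detected in the labelled TE11 knockdown, 7 in TE11 shNC and 4 (HOXC6, HOXC8, HOXC9 and HOXC13) in each Kyse150 group. No HOXD gene was detected in any group. Counts of HOXD genes appeared in TE11 shNC alone, as traces: HOXD8 at 0.550, 0.543 and 0.0862 CPM, and HOXD10, HOXD11, HOXD12 and HOXD13 at 0 to 0.183 CPM. HOXD10 to HOXD13 held 1 to 4 counts over that group, too few to set apart from 0 in the other groups, which hold fewer counts. HOXB1, HOXD1, HOXD3, HOXD4 and HOXD9 held no count in any of the 9 libraries. Exons of HOXD4, HOXD3 and HOXD1 overlap other genes over 80.5%, 74.1% and 58.1% of their length. Fragments there may have been set aside as ambiguous, which was not tested.

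All 14 genes detected in the labelled TE11 knockdown were also detected in Kyse150 shNC, where they made up 82.4% of the 17. The 3 others there were HOXA2, HOXC6 and HOXC8. Only 10 of the 14 (71.4%) were detected in TE11 shNC, 58.8% of its 17. The TE11 and Kyse150 controls shared 12 of 17 each. All 14 genes at 0 in Kyse150 shNC were also at 0 in the labelled TE11 knockdown, while 5 were at 0 in TE11 shNC. TE11 shNC was read more deeply, with a scaled total of 33567451 counts, against 16798939 in the labelled knockdown and 14205043 in Kyse150 shNC. Fewer genes at 0 there may in part follow from that.

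**Figure D1:**
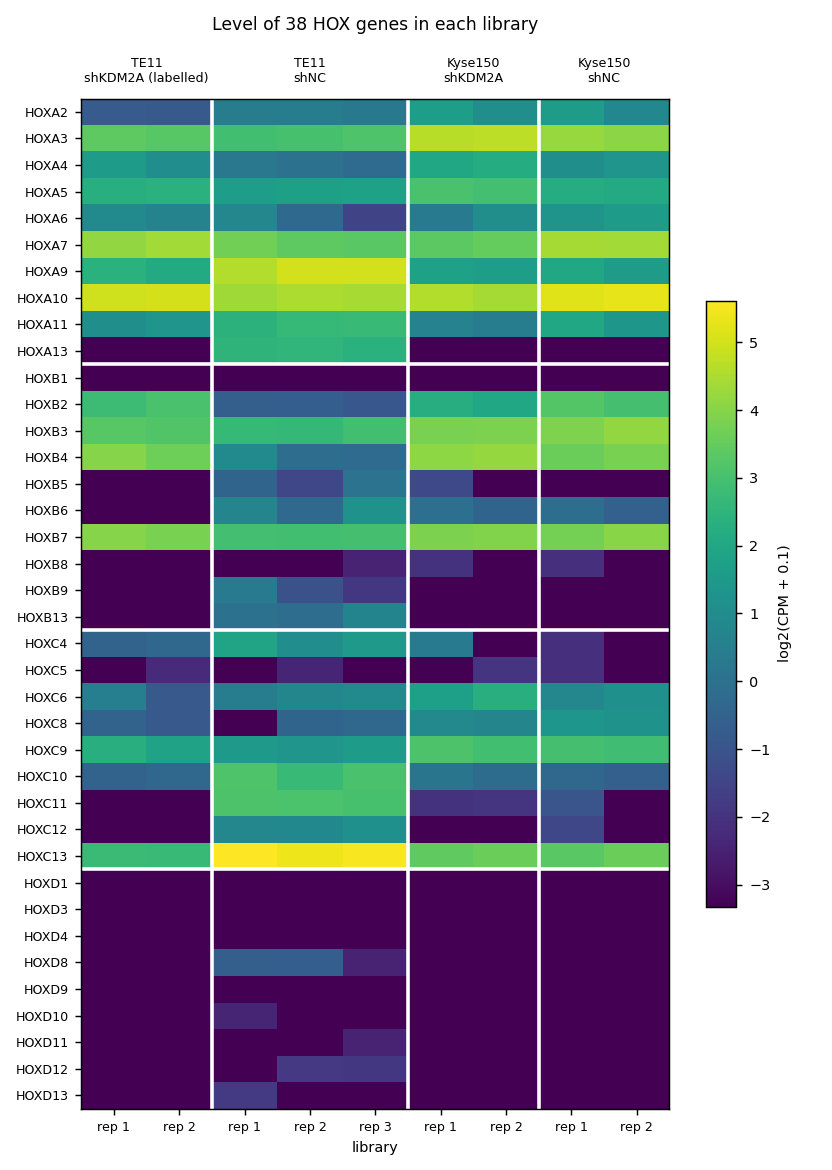
Level of 38 HOX genes (rows, by cluster and paralog number) in each of the 9 libraries (columns, by group), as log2(CPM + 0.1) on the colour scale. HOXC10 to HOXC13, HOXA9 and HOXA13 are brightest in the 3 TE11 shNC libraries, HOXB2 and HOXB4 are dim there, and the HOXD rows are at or near 0 throughout.

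The summed level of the 38 genes was 140.1 and 135 CPM in the libraries labelled TE11 shKDM2A, against 179, 174 and 184 CPM in TE11 shNC, and 158.2 and 158.1 CPM in Kyse150 shKDM2A, against 169.7 and 174 CPM in Kyse150 shNC. The sum was divided differently between positions and clusters. Paralog groups 9 to 13 made up 36.9% of it in the labelled TE11 knockdown, against 72.8% in TE11 shNC, and 30.02% in Kyse150 shKDM2A, against 37.2% in Kyse150 shNC. By cluster, HOXC held 9.92% in the labelled TE11 knockdown, against 39.8% in TE11 shNC, and HOXB held 33.3%, against 10.9%. In Kyse150 shKDM2A HOXA held 50.6%, HOXB 32.6% and HOXC 16.9%, against 54.9%, 31.1% and 13.9% in Kyse150 shNC. These sums are descriptions and were not tested.

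**Figure D2:**
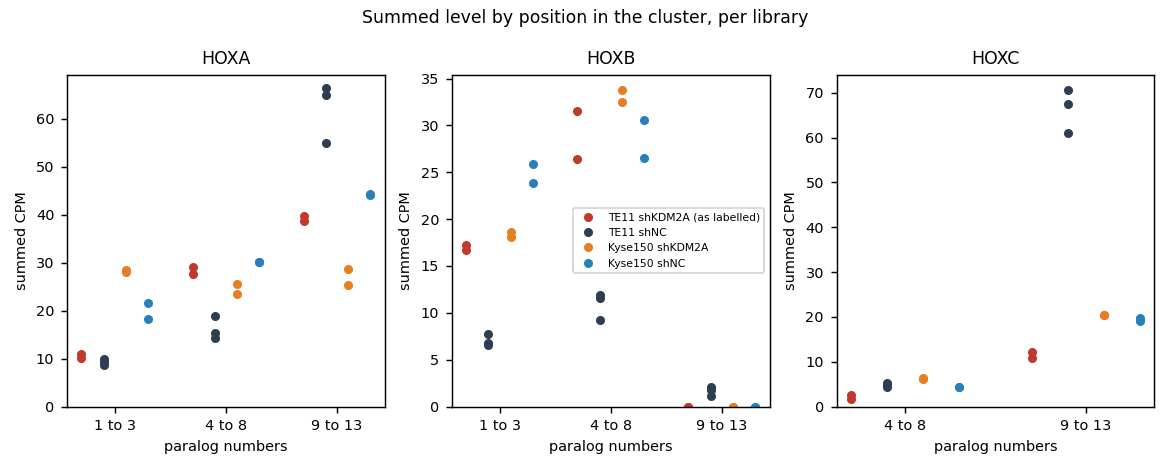
Summed CPM (vertical axis) of the HOXA, HOXB and HOXC genes by paralog numbers (horizontal axis), with 1 point per library and 1 colour per group. Within HOXA, where the first class holds HOXA2 and HOXA3, its sum was 28.2 and 28.5 CPM in Kyse150 shKDM2A, against 21.5 and 18.3 CPM in Kyse150 shNC, while that of paralogs 9 to 13 was 28.8 and 25.4 CPM, against 44.1 and 44.4 CPM.

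Per kb of exon, the leading HOX genes were not the same in the 4 groups. In the labelled TE11 knockdown HOXB7 led at a mean of 9.79 CPM per kb, followed by HOXA10 at 8.70 and HOXA7 at 7.99. Library ranges of HOXB7 (9.20 to 10.4) and HOXA10 (8.50 to 8.90) did not overlap, while HOXA10 was above HOXA7 by a narrow margin (highest library of HOXA7 at 8.48). In TE11 shNC HOXC13 led at 18.8 CPM per kb, followed by HOXA9 at 9.61 and HOXA10 at 5.79, with no overlap between these 3. Kyse150 shKDM2A was led by HOXB7 at 9.61, then HOXA10 at 6.06 and HOXA3 at 5.99, and the libraries of HOXA10 and HOXA3 overlapped. Kyse150 shNC was led by HOXA10 at 10.1 and HOXB7 at 9.64, whose libraries overlapped, then HOXA7 at 8.61, which overlapped HOXB7 alone of these.

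In Kyse150, where KDM2A was lower, HOXA3, HOXA4 and HOXA5 were called higher and HOXA7, HOXA10 and HOXA11 lower. Of these, only HOXA3, HOXA7 and HOXA10 kept the call under all 11 alternatives tried, and HOXA2, HOXA6 and HOXA9 were not called. A split of the HOXA cluster by position was not tested. HOXB4 and HOXC6 rose and HOXB2 fell. Of 38 HOX genes, 17 passed the filter on low counts in this comparison, and 9 of these (52.9%) were called at an edgeR adjusted p below 0.05: 5 higher and 4 lower. Over all 14060 genes tested, 48.2% were called, 24.8% higher and 23.3% lower, so the HOX share is near the background. The median log2 fold change was 0.00 both for the 17 and over all genes tested. Libraries of the groups did not overlap for 12 of the 17 and for 73.4% of all genes tested.

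Toward the anterior end, HOXA3, needed for thymus and parathyroid formation, stood at 25.1 and 26.5 CPM in Kyse150 shKDM2A, against 18.6 and 16.6 CPM in Kyse150 shNC (log2 fold change 0.56, SE 0.15, edgeR adjusted p = 0.00298). The knockdown libraries were the higher ones. HOXA2, which patterns the second branchial arch, was at 3.05 and 2.05 CPM in Kyse150 shKDM2A and 2.91 and 1.71 CPM in Kyse150 shNC and was not called (0.15, SE 0.40). In the middle of the cluster, HOXA4 was at 3.92 and 4.57 CPM in Kyse150 shKDM2A, against 2.08 and 2.43 CPM in Kyse150 shNC (0.91, SE 0.35, edgeR adjusted p = 0.0322). HOXA5, a gene of lung and airway development, was at 8.13 and 7.57 CPM in Kyse150 shKDM2A, against 4.58 and 4.29 CPM in Kyse150 shNC (0.83, SE 0.26, edgeR adjusted p = 0.0087). Both rose with no overlap between the groups.

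From HOXA6 to HOXA11 the estimates were below 0, but only HOXA7 and HOXA10 among these kept a call under every alternative. HOXA6 was at 1.16 and 2.05 CPM in Kyse150 shKDM2A, against 2.36 and 3.00 CPM in Kyse150 shNC, which did not pass (log2 fold change -0.74, SE 0.43, edgeR adjusted p = 0.158). HOXA7, a repressor of keratinocyte differentiation genes, stood at 10.3 and 11.4 CPM in Kyse150 shKDM2A, against 21.1 and 20.4 CPM in Kyse150 shNC (-0.93, SE 0.17, edgeR adjusted p = 5.97e-05). HOXA10, a gene of uterine patterning, stood at 24.0 and 21.0 CPM in Kyse150 shKDM2A, against 36.1 and 38.9 CPM in Kyse150 shNC (-0.73, SE 0.13, edgeR adjusted p = 4.22e-05). The knockdown libraries were lower for both, by more than the spread within either group. HOXA11, which shapes the forearm, was at 1.45 and 1.26 CPM in Kyse150 shKDM2A, against 4.03 and 2.57 CPM in Kyse150 shNC (-1.26, SE 0.42, edgeR adjusted p = 0.0149). It held 10 and 8 counts in the knockdown libraries and passed the filter through Kyse150 shNC, where it was higher. Passing thus favoured a call for HOXA11, and its p-value supports no direction. HOXA9, a leukaemia-associated gene, lies between the 2 called genes HOXA7 and HOXA10 and was at 3.34 and 3.15 CPM in Kyse150 shKDM2A and 4.03 and 3.00 CPM in Kyse150 shNC, with overlapping groups and no call (-0.11, SE 0.34).

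In HOXB, HOXB2, a hindbrain gene, fell to 4.65 and 3.94 CPM in Kyse150 shKDM2A, against 9.30 and 7.86 CPM in Kyse150 shNC (log2 fold change -0.98, SE 0.26, edgeR adjusted p = 0.00235). HOXB4, known for its effect on blood stem cells, stood at 16.8 and 18.1 CPM in Kyse150 shKDM2A, against 12.2 and 13.9 CPM in Kyse150 shNC (0.43, SE 0.17, edgeR adjusted p = 0.0399). HOXB3, between them, was at 13.9 and 14.2 CPM in Kyse150 shKDM2A and 14.6 and 18.0 CPM in Kyse150 shNC and was not called (-0.20, SE 0.17). Neighbours on the chromosome thus had calls of opposite sign with an uncalled gene in between. HOXB7 was at 14.4 and 14.98 CPM in Kyse150 shKDM2A and 13.3 and 16.1 CPM in Kyse150 shNC, with overlapping groups (0.00, SE 0.18). In HOXC, HOXC6 rose to 3.20 and 4.73 CPM in Kyse150 shKDM2A, against 1.67 and 2.14 CPM in Kyse150 shNC (1.052, SE 0.38, edgeR adjusted p = 0.0227), and HOXC8 (-0.51, SE 0.42), HOXC9 (0.10, SE 0.23) and HOXC13 (0.05, SE 0.20) were not called.

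DESeq2 called 1 gene higher, HOXA3, and 3 lower, HOXA7, HOXA10 and HOXB2. These 4 were called under all 11 alternatives tried. The calls of HOXA4 (log2 fold change 0.80 to 1.02) and HOXB4 (0.34 to 0.52) were lost without each of the 4 Kyse150 libraries in turn and with all libraries in 1 fit (edgeR adjusted p = 0.0501 and 0.0695), that of HOXB4 with no filter also (edgeR adjusted p = 0.0661). That of HOXA5 was lost without knockdown replicate 1 (0.77), that of HOXA11 without knockdown replicate 1 (-1.37), knockdown replicate 2 (-1.17) or control replicate 1 (-0.91), and that of HOXC6 without knockdown replicate 2 (0.75) or control replicate 1 (0.88). Exons of HOXA7 overlap other genes over 62.5% of their length, those of HOXA4 over 47.3%, of HOXA6 over 40.1%, of HOXB6 over 32.95%, of HOXA11 over 31.1%, of HOXA9 over 27.0% and of HOXA10 over 26.3%. No source used here says whether counting used strand. Reads of overlapping genes may thus be mixed or set aside as ambiguous at these, and to a lesser extent at other tested members. Of the untested members, the exons of HOXC5 overlap over 59.9%, and HOXD1, HOXD3 and HOXD4 also overlap widely.

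**Figure D3:**
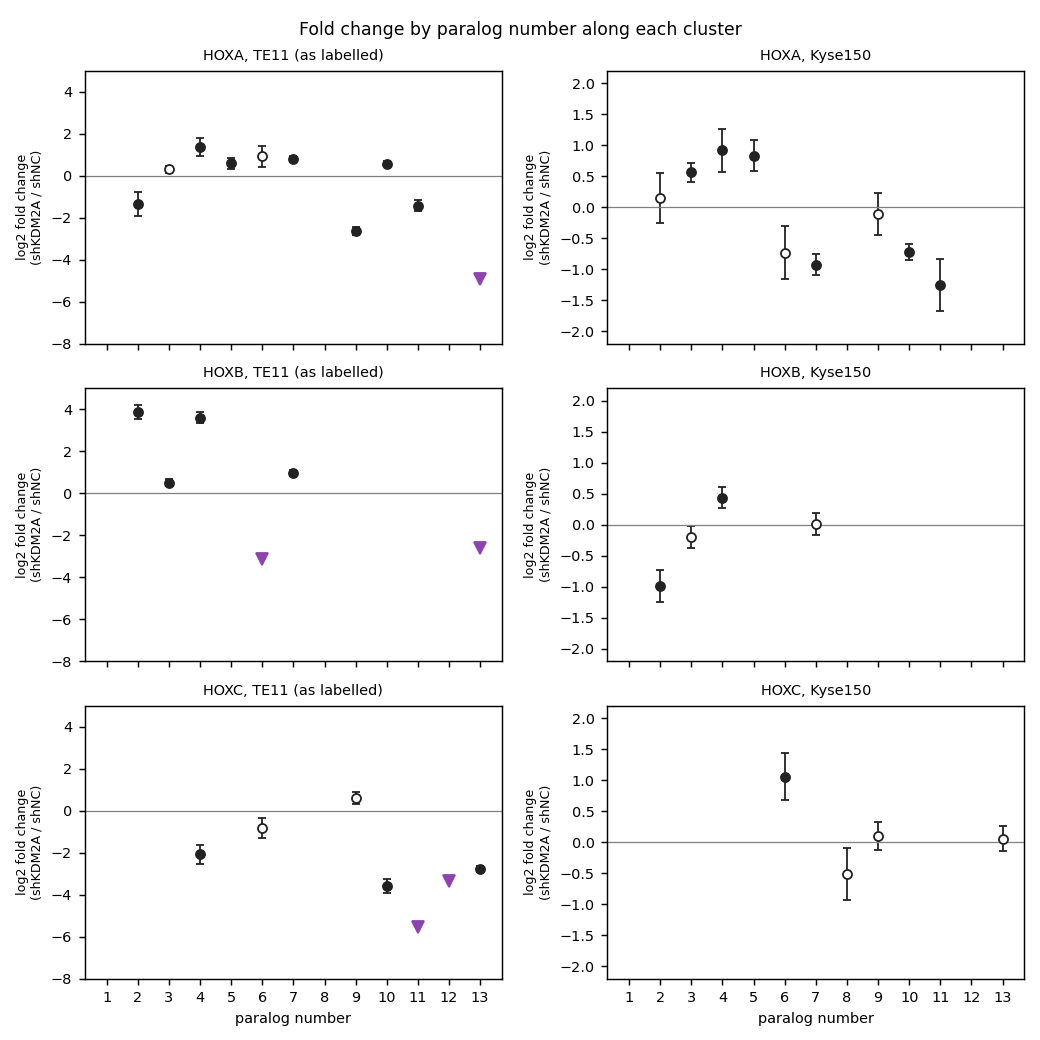
Log2 fold change of shKDM2A over shNC (vertical axis, with its own range for each line) by paralog number (horizontal axis), for TE11 as labelled on the left and Kyse150 on the right. Filled circles are called genes and open circles tested genes that were not called, bars are 1 SE, and triangles are bounds for genes at 0 in the labelled knockdown; HOXA3, HOXA4 and HOXA5 lie above 0 and HOXA7, HOXA10 and HOXA11 below it in Kyse150.

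In TE11, the libraries labelled knockdown held less of most posterior HOX transcripts than the control libraries, several of them at 0, and more of HOXB2 and HOXB4, which the control had at trace level. HOXA13, HOXB6, HOXB13, HOXC11 and HOXC12 held no count there, and HOXA9, HOXC10 and HOXC13 fell by 2.64 or more on the log2 scale. HOXB2 and HOXB4 rose by 3.85 and 3.59. Of the 38 genes, 23 passed the filter, and 19 of these (82.6%) were called, 8 higher and 11 lower. Over all 16453 genes tested 78.1% were called, 35.9% higher and 42.2% lower, so here too the HOX share is near the background. The median log2 fold change was -0.83 for the 23 and -0.09 over all genes tested. Libraries of the groups did not overlap for 21 of the 23 and for 84.3% of all genes tested. The 5 genes without counts in the labelled knockdown passed the filter through TE11 shNC, where they were higher. So did HOXA2, HOXC4 and HOXC10, at 4 to 6 counts in each labelled knockdown library. HOXA4, HOXB2 and HOXB4 passed through the labelled knockdown, where they were higher. Passing the filter thus favoured a call for these genes. Neither count, nor the median, nor the p-values of these genes support a direction of the cluster genes.

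Along HOXC, HOXC13, a regulator of hair and nail keratin genes, stood at 6.71 and 6.62 CPM in the libraries labelled TE11 shKDM2A, against 48.9, 41.9 and 46.1 CPM in TE11 shNC (log2 fold change -2.79, SE 0.14, edgeR adjusted p = 1.3e-22). HOXC11 held no count in the labelled knockdown, against 8.52, 8.41 and 8.02 CPM in TE11 shNC, which is at least 46.5-fold lower when set against 3 counts over the group. HOXC12 also held no count there, against 1.65, 1.72 and 2.16 CPM in TE11 shNC, at least 10.3-fold lower. Both were called (edgeR adjusted p = 3.1e-16 and 5e-07). HOXC10, a gene of the lumbar region, stood at 0.610 and 0.697 CPM in the labelled knockdown, against 8.80, 6.51 and 8.28 CPM in TE11 shNC (-3.58, SE 0.34, edgeR adjusted p = 7.79e-13). HOXC9, the next gene toward the anterior end, did not share this: it was at 4.88 and 3.49 CPM in the labelled knockdown, against 2.75, 2.44 and 2.93 CPM in TE11 shNC, and did not pass (0.60, SE 0.29, edgeR adjusted p = 0.0525). HOXC4 stood at 0.610 and 0.697 CPM in the labelled knockdown, against 3.66, 1.99 and 2.67 CPM in TE11 shNC (-2.08, SE 0.46, edgeR adjusted p = 8.78e-05), and HOXC6 at 1.34 and 0.465 CPM, against 1.28, 1.63 and 1.81 CPM, was not called (-0.83, SE 0.49).

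At the posterior end of HOXA, HOXA13, a gene of the hindgut, genital tract and digits, held no count in the labelled knockdown, against 5.59, 5.79 and 5.17 CPM in TE11 shNC, at least 30.9-fold lower (edgeR adjusted p = 3.29e-13). HOXA9 stood at 5.13 and 4.30 CPM in the labelled knockdown, against 23.8, 31.7 and 31.7 CPM in TE11 shNC (log2 fold change -2.64, SE 0.17, edgeR adjusted p = 2.91e-18). HOXA11 stood at 2.08 and 2.44 CPM, against 5.31, 6.24 and 6.64 CPM in TE11 shNC (-1.44, SE 0.27, edgeR adjusted p = 7.15e-06). HOXA10 lies between HOXA9 and HOXA11 and went the other way, at 31.5 and 33.0 CPM in the labelled knockdown, against 20.3, 22.6 and 21.5 CPM in TE11 shNC (0.57, SE 0.11, edgeR adjusted p = 1.71e-05). HOXA7 was at 18.1 and 20.4 CPM, against 13.01, 10.5 and 9.92 CPM in TE11 shNC (0.78, SE 0.14, edgeR adjusted p = 5.93e-06). HOXA4 (1.37, SE 0.42) and HOXA5 (0.59, SE 0.26) were also called higher and HOXA2 lower (-1.35, SE 0.58), while HOXA3 (0.30, SE 0.17) and HOXA6 (0.92, SE 0.51) were not called.

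In HOXB the directions were mixed: HOXB2, HOXB3, HOXB4 and HOXB7 were called higher in the labelled knockdown, and HOXB6 and HOXB13 lower. HOXB2 stood at 6.96 and 8.13 CPM in the labelled knockdown, against 0.550, 0.543 and 0.431 CPM in TE11 shNC (log2 fold change 3.85, SE 0.34, edgeR adjusted p = 7.2e-14). HOXB4 stood at 15.6 and 12.3 CPM in the labelled knockdown, against 1.83, 0.814 and 0.776 CPM in TE11 shNC (3.59, SE 0.26, edgeR adjusted p = 8.37e-17). Both were at trace level in the TE11 controls. HOXB3, which lies between them, differed far less, at 9.77 and 9.06 CPM against 6.23, 6.06 and 7.33 CPM in TE11 shNC (0.50, SE 0.19, edgeR adjusted p = 0.0135). HOXB7 was at 15.9 and 14.1 CPM in the labelled knockdown, against 7.51, 7.42 and 7.76 CPM in TE11 shNC (0.96, SE 0.16, edgeR adjusted p = 6.59e-07). HOXB6 held no count in the labelled knockdown, against 1.56, 0.724 and 2.33 CPM in TE11 shNC (at least 8.67-fold lower), and HOXB13, a gene of the prostate and distal gut, no count, against 0.916, 0.814 and 1.55 CPM (at least 6.17-fold lower). HOXB5 and HOXB9, which did not pass the filter, were also at 0 in the labelled knockdown, against 0.271 to 0.949 and 0.172 to 1.19 CPM in TE11 shNC.

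Of the 19 calls, 13 were kept under all 12 alternatives, and those of HOXB6 and HOXB13 were kept under the 9 and 6 alternatives in which they could be tested. The call of HOXA2 was lost without labelled knockdown replicate 1 (log2 fold change -1.38) or 2 (-1.31), with DESeq2 (adjusted p = 0.102), with no filter (edgeR adjusted p = 0.0625) and with a replicate block (edgeR adjusted p = 0.0669). That of HOXA5 was lost without each of the 5 libraries in turn (0.54 to 0.65), with DESeq2 (adjusted p = 0.121), upper quartile scaling (edgeR adjusted p = 0.0606), no filter (edgeR adjusted p = 0.0614) and the block (edgeR adjusted p = 0.0793). Those of HOXA4 (1.08) and HOXB3 (0.46) were lost without labelled knockdown replicate 1, and that of HOXB3 with DESeq2 also (adjusted p = 0.0665). HOXA6 was called without control replicate 1 (1.73), HOXC6 without labelled knockdown replicate 1 (-1.74) and HOXC9 without labelled knockdown replicate 2 (0.84) or with all libraries in 1 fit (0.62, edgeR adjusted p = 0.0327).

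**Figure D4:**
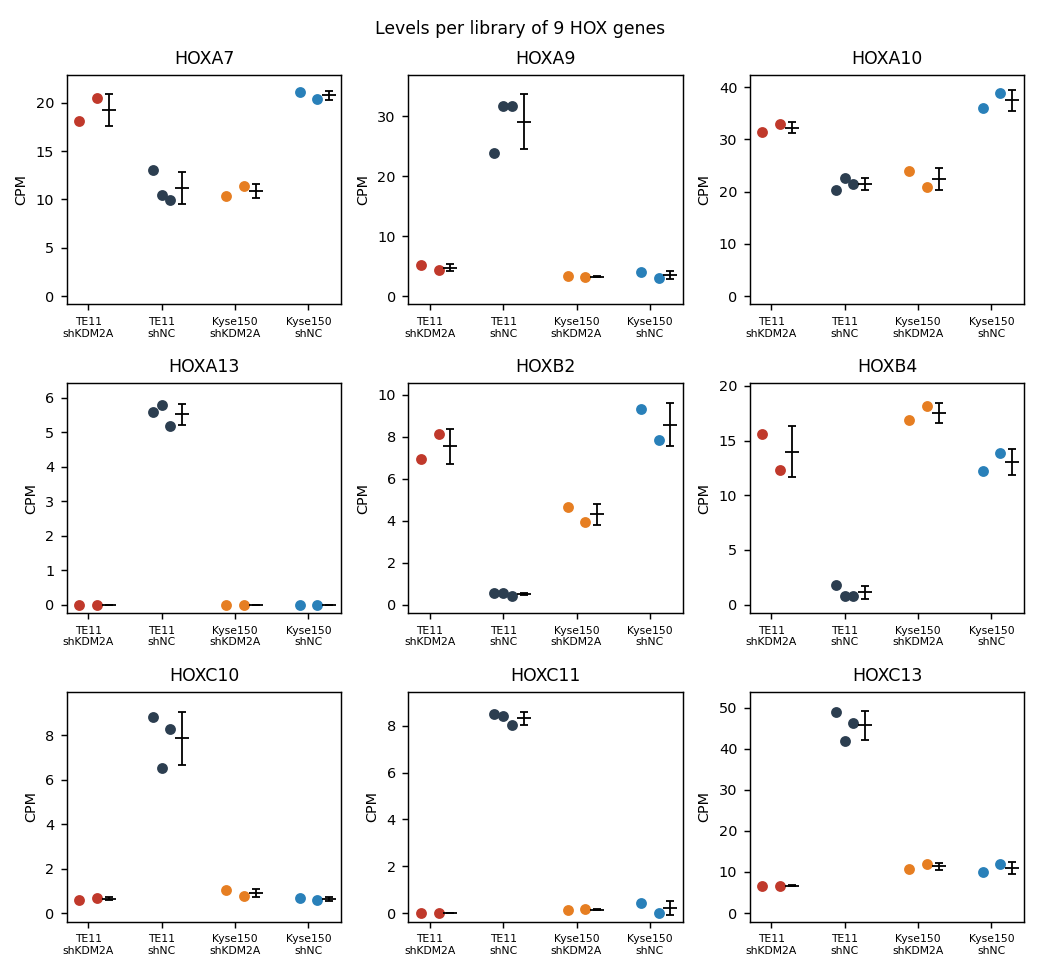
CPM (vertical axes, each from 0) of 9 HOX genes in every library, with 1 coloured point per library and the group mean with its SD in black. TE11 shNC stands apart from the other 3 groups for HOXA9, HOXA13, HOXB2, HOXB4, HOXC10, HOXC11 and HOXC13, whereas HOXA7 and HOXA10 are highest in the labelled TE11 knockdown and Kyse150 shNC.

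Between the control libraries of the lines, TE11 shNC held more of HOXA9, HOXA11, HOXA13, HOXC4 and HOXC10 to HOXC13 and less of HOXB2, HOXB3, HOXB4 and HOXB7 than Kyse150 shNC. Of the 38 genes 23 passed the filter of the fit over both tables, and 20 of these (87.0%) were called, 8 higher and 12 lower in TE11 shNC. Over all 15895 genes tested 79.7% were called, 43.7% higher and 36% lower. The median log2 fold change was -0.80 for the 23 and 0.12 over all genes tested. The groups did not overlap for 21 of the 23 and for 85.3% of all genes tested. HOXA13, HOXC4, HOXC10, HOXC11 and HOXC12, which held 9 counts or fewer over Kyse150 shNC, were high in TE11 shNC. HOXA4, HOXA6, HOXB2, HOXB4 and HOXC8 were at trace level in TE11 shNC and passed through groups where they were higher. Passing the filter favoured a call for all of these, so the counts and the median support nothing. The per-library values are those given above.

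HOXA9 was higher in TE11 shNC by 3.04 on the log2 scale (SE 0.20, edgeR adjusted p = 1.77e-21), HOXC13 by 2.05 (SE 0.14, edgeR adjusted p = 4.22e-21) and HOXC10 by 3.604 (SE 0.38, edgeR adjusted p = 5.32e-13). HOXA13 held no count in Kyse150 shNC and was at least 26.1-fold higher in TE11 shNC. HOXC11 held 279 counts over the TE11 controls and 3 over the Kyse150 controls, a ratio of 39.4 with an exact 95% interval of 13.3 to 192.0 that covers counting error only. HOXC12 held 62 counts over TE11 shNC and 2 over Kyse150 shNC, a ratio of 13.1 (interval 3.48 to 110.7), and HOXC4 93 and 1, a ratio of 39.4 (6.89 to 1571). In the other direction, HOXB2 was lower in TE11 shNC (log2 fold change -4.04, SE 0.32, edgeR adjusted p = 1.7e-17), as was HOXB4 (-3.51, SE 0.25, edgeR adjusted p = 1.81e-19). HOXA3 (-1.12), HOXA6 (-1.61), HOXA7 (-0.90), HOXA10 (-0.80), HOXB3 (-1.31), HOXB7 (-0.96), HOXC8 (-2.38) and HOXC9 (-1.47) were also lower.

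HOXA2 (-0.92) and HOXA4 (-1.27) were called lower and HOXA11 higher (0.87), but the HOXA2 call was lost with DESeq2 (adjusted p = 0.107), with no filter (edgeR adjusted p = 0.0773) and without Kyse150 control replicate 1 (-0.48), TE11 control replicate 2 (-0.94) or TE11 control replicate 3 (-0.87), and those of HOXA4 (-1.15) and HOXA11 (0.60) without Kyse150 control replicate 2. HOXA5, HOXB6 and HOXC6 were not called, though HOXB6 was without TE11 control replicate 2 (1.46).

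The libraries labelled TE11 knockdown were also set against the Kyse150 controls. Of the same 23 genes, 8 (34.8%) were called, 1 higher and 7 lower, against 53.6% of all 15895 genes tested (29.1% higher and 24.5% lower), and 14 of the 23 did not overlap, against 74.3% of all genes tested. HOXA13, HOXC11 and HOXC12 held 3 counts or fewer in both groups and passed the filter through TE11 shNC, which lowers these shares. Among the 20 others 8 (40.0%) were called and 14 did not overlap, beside 57% called and 78.6% without overlap among the 14943 genes with more than 3 counts in either group. These 20 still include HOXB6, HOXC4 and HOXC10, which held 11 counts or fewer over either group and also passed through TE11 shNC. HOXB6 and HOXC4 are among the 8 called. So are HOXA2 and HOXC8, which held 8 and 9 counts over the labelled knockdown. Both passed through groups where they were higher, Kyse150 shNC among them, which favoured a call. The median log2 fold change was -0.55 for the 23 and 0 over all genes tested. The comparison shares its libraries with the others given here, so the values are set side by side and no relation between them is drawn.

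Several genes with large differences within TE11 were not called here. HOXB2 stood at 6.96 and 8.13 CPM in the labelled TE11 knockdown and 9.30 and 7.86 CPM in Kyse150 shNC (log2 fold change -0.18, SE 0.24), and HOXB4 at 15.6 and 12.3 CPM and 12.2 and 13.9 CPM (0.10, SE 0.19). HOXC10 was at 0.610 and 0.697 CPM and 0.694 and 0.571 CPM (0.05, SE 0.67), HOXA9 at 5.13 and 4.30 CPM and 4.03 and 3.00 CPM (0.42, SE 0.29) and HOXA13 at 0 in both. HOXA7 (-0.11, SE 0.16), HOXA10 (-0.22, SE 0.12) and HOXB7 (0.02, SE 0.17) were not called either, but HOXA10 was called lower with RLE scaling (-0.28, edgeR adjusted p = 0.0421) and upper quartile scaling (-0.32, edgeR adjusted p = 0.0198). A missing call does not show that levels were equal.

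The 7 genes called lower in the labelled TE11 knockdown were HOXA2 (log2 fold change -2.25, SE 0.58), HOXA3 (-0.81, SE 0.17), HOXB3 (-0.79, SE 0.19), HOXC8 (-2.13, SE 0.61), HOXC9 (-0.85, SE 0.26), HOXC13 (-0.72, SE 0.19) and HOXB6, which held 0 counts against 10 in Kyse150 shNC. HOXA3 stood at 10.4 and 9.76 CPM in the labelled TE11 knockdown, against 18.6 and 16.6 CPM in Kyse150 shNC. HOXC13 stood at 6.71 and 6.62 CPM, against 9.99 and 11.9996 CPM in Kyse150 shNC. The groups did not overlap for either gene. HOXC4 was called higher on 11 counts against 1, a ratio of 9.30 with an exact 95% interval of 1.35 to 400.4. DESeq2 did not call HOXC4, and its call was also lost without either labelled knockdown library (2.88 and 3.08) or without control replicate 2 (2.14), and that of HOXC9 without labelled knockdown replicate 2 (-0.62). HOXC6 was called without labelled knockdown replicate 1 (-1.99) and HOXC11 without control replicate 2.

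The responses to the shRNA label were compared between the lines in the same fit. For 14 of the 23 tested HOX genes (60.9%) the difference was called, 7 with a higher and 7 with a lower response in TE11, beside 66.9% of all 15895 genes tested (33.8% higher and 33.1% lower). HOXB6, HOXC4, HOXC10 and HOXC11, among the 7 lower, held 12 counts or fewer over each group but TE11 shNC. They passed the filter through TE11 shNC, where they were high. So did HOXA13 and HOXC12, not called, at 2 counts or fewer over each other group. The counts thus support no direction. HOXA7, HOXA10 and HOXB2 were called higher in TE11, lower in Kyse150 and different between the lines. HOXA4 and HOXA5 were called higher in both lines, and their difference was not called. Each of these calls was lost under some alternative, that of HOXA4 in Kyse150 under 6 of 11. That of HOXA5 in TE11 was lost under 9 of 12.

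HOX proteins bind DNA with TALE homeodomain cofactors of the PBX, MEIS and PKNOX families. In TE11 4 of 7 tested cofactor genes rose and 3 fell, where 35.9% of all genes tested were called higher and 42.2% lower. In Kyse150 2 of 6 rose and 1 fell, where 24.8% of all genes tested were called higher and 23.3% lower. PBX3 was at 22.1 and 19.3 CPM in the labelled TE11 knockdown, against 2.57, 4.61 and 3.79 CPM in TE11 shNC (log2 fold change 2.48, SE 0.18), and was not called in Kyse150 (0.36, SE 0.18). MEIS1 fell by 1.46 on the log2 scale in TE11 (SE 0.24) and was not called in Kyse150 (0.59, SE 0.42). MEIS3 rose in both lines (2.05, SE 0.25 in TE11 and 0.99, SE 0.16 in Kyse150). PBX2 fell by 0.59 on the log2 scale in TE11 and rose in Kyse150 (0.73, SE 0.12), and PKNOX1 rose in TE11 (1.57, SE 0.12) and fell by 0.80 on the log2 scale in Kyse150.

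Among trithorax-group and activating factors, 4 of 12 tested genes rose and 7 fell in TE11, and 4 of 11 rose and 1 fell in Kyse150, beside 78.1% of all genes called in TE11 and 48.2% in Kyse150. KMT2A, the methyltransferase that keeps HOX genes active, stood at 131 and 124 CPM in the libraries labelled TE11 shKDM2A, against 22.1, 23.9 and 23.6 CPM in TE11 shNC (log2 fold change 2.44, SE 0.08, edgeR adjusted p = 1.1e-28). In Kyse150 it stood at 188 and 195 CPM in shKDM2A, against 145 and 148 CPM in shNC (0.39, SE 0.07, edgeR adjusted p = 1.77e-05). WDR5, a subunit of the same complexes, rose in TE11 (0.80, SE 0.07) and fell by 0.42 on the log2 scale in Kyse150. KDM6B, which removes the Polycomb mark, fell by 1.07 on the log2 scale in TE11 and rose in Kyse150 (0.69, SE 0.11). PSIP1, which ties KMT2A to chromatin, fell by 1.09 on the log2 scale in TE11 and was not called in Kyse150 (-0.16, SE 0.10), and DOT1L rose in both (0.21, SE 0.08 in TE11 and 0.22, SE 0.08 in Kyse150).

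Of 18 tested Polycomb genes, 4 rose and 10 fell in TE11, and 5 rose and 5 fell in Kyse150, near the shares of all genes called (78.1% and 48.2%). EZH2, the main enzyme of the silencing mark, was at 43.3 and 40.0 CPM in the libraries labelled TE11 shKDM2A, against 59.5, 59.2 and 57.7 CPM in TE11 shNC (log2 fold change -0.51, SE 0.09, edgeR adjusted p = 1.35e-06). In Kyse150 it was at 40.8 and 42.6 CPM in shKDM2A, against 52.2 and 47.0 CPM in shNC, and did not pass (-0.24, SE 0.11, edgeR adjusted p = 0.0572). Its relative EZH1 fell by 1.01 on the log2 scale in TE11 and rose in Kyse150 (0.93, SE 0.13). In TE11 the smallest p-values belonged to PHF19 (2.05, SE 0.08), CBX2 (-1.45, SE 0.10), JARID2 (-1.045, SE 0.08) and BMI1 (1.31, SE 0.11). In Kyse150 they belonged to RNF2 (-1.21, SE 0.15), EZH1, CBX7 (0.87, SE 0.13) and PHF1 (0.9997, SE 0.15).

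Long non-coding RNA genes lie between the HOX genes of each cluster. Of 13 tested in TE11, 3 rose and 9 fell, beside 35.9% and 42.2% of all genes tested. Of 9 tested in Kyse150, 1 rose and 2 fell, beside 24.8% and 23.3%. HOTAIR, transcribed from the HOXC cluster, held no count in the libraries labelled TE11 shKDM2A, against 4.31, 4.61 and 4.83 CPM in TE11 shNC (edgeR adjusted p = 4.91e-12). HOTTIP, at the HOXA13 end of HOXA, held none either, against 1.01, 1.81 and 1.29 CPM (edgeR adjusted p = 9.32e-06), and was at 0 in both Kyse150 groups. HOTAIR and HOTTIP passed the filter through TE11 shNC, where they were higher, so passing favoured a call. Neither their p-values nor the count of 9 lower supports a direction. HOXC13-AS was at 0.854 and 1.39 CPM in the labelled TE11 knockdown, against 18.3, 14.4 and 13.4 CPM in TE11 shNC (log2 fold change -3.76, SE 0.26). HOXC-AS3 fell by 3.94 on the log2 scale and HOXB-AS1 rose (1.78, SE 0.29) in TE11. In Kyse150, HOTAIRM1, at the anterior end of HOXA, rose to 19.9 and 20.7 CPM in shKDM2A, against 11.7 and 9.29 CPM in shNC (0.96, SE 0.18, edgeR adjusted p = 6.18e-05). HOXA-AS3, which overlaps HOXA7 on the other strand, fell to 12.9 and 11.7 CPM in Kyse150 shKDM2A, against 17.5 and 22.6 CPM in Kyse150 shNC (-0.69, SE 0.18), and HOXA10-AS fell by 0.49 on the log2 scale (SE 0.14). HOXC-AS1 was not called in Kyse150 (0.96, SE 0.55). Antisense RNAs and the HOX genes they overlap cannot be told apart where the counting did not use strand.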

How the data were processed

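Whole-number gene counts, deposited by the authors in 1 table per line without normalization, were analysed for 9 libraries (2 Kyse150 shKDM2A, 2 Kyse150 shNC, 2 labelled TE11 shKDM2A, 3 TE11 shNC), grouped by their titles. Per the labels' protocols, poly(A) RNA was captured on oligo(dT) beads and sequenced paired-end. Reads were handled with HISAT2 2.1.0, HTSeq 0.9.1, bcl2fastq 2.19 and DESeq2, per the submitters' processing notes, which list GRCh38.p13 beside GRCh37.p13 and tie neither to a table. HTSeq's summary rows, left out of every fit, held 42.3% to 44.5% of a column as fragments outside genes and 1.85% to 2.72% as ambiguous.

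Each line was tested alone with edgeR 4.0.16 in R 4.3.3 (robust quasi-likelihood fit, TMM, filterByExpr with a minimum count of 10 and a minimum total of 15). Adjustment was by Benjamini-Hochberg over all genes tested, with a threshold of 0.05. Comparisons between lines, and of the responses of the lines, used 1 fit of 4 groups over the 52165 identifiers in both tables. Bounds for genes at 0 and intervals for 1 to 3 counts cover counting error only. The fit was tested on simulated data with known changes. Alternatives were DESeq2 1.42.0, RLE and upper quartile scaling, no filter or one at 1 CPM, all libraries in 1 fit, a replicate block, each library left out, and other detection thresholds.

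The members and lists were chosen with earlier results of these data known. The 38 HOX genes were eligible for naming, with the 4 members of each regulator list with the smallest p in each line, and KMT2A, EZH2, HOTAIR, HOTTIP and KDM2A. A further HOX gene, 1 TALE cofactor and 1 leukocyte marker took part in every fit but are not reported here and enter no count or sum over the HOX genes or lists. PCGF2 and PECAM1 were listed under no matching symbol. A second, non-coding identifier named HOXC5 was left out. Coordinates and exon overlaps are from GENCODE 29, promoters from RefSeq on GRCh38.p14. Libraries of a group differed beyond counting noise (chi-square per degree of freedom 1.62 to 4.91 within groups).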

Additional observations from a re-analysis of the deposited data

Results flagged for a closer look

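For 14 of 23 tested HOX genes the response to the shRNA label differed between the lines in the test of that difference (1 edgeR fit of 9 libraries, adjusted p below 0.05), 7 with a higher and 7 with a lower response in TE11. Over all 15895 genes tested 66.9% did so. HOXB6, HOXC4, HOXC10 and HOXC11, among the 7 lower, passed the filter through TE11 shNC, where they were high, so these counts support no direction. The values are the log2 response in TE11, as labelled, minus that in Kyse150. KDM2A fell in Kyse150 alone, so the labels do not stand for the same change in both lines.

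In HOXA the difference was 1.68 for HOXA6, 1.73 for HOXA7, -2.51 for HOXA9 and 1.32 for HOXA10. HOXA7 and HOXA10 rose in TE11 and fell in Kyse150. In HOXB it was 4.85 for HOXB2, which rose in TE11 and fell in Kyse150, 0.73 for HOXB3, 3.18 for HOXB4 and 0.98 for HOXB7. In HOXC it was -1.86 for HOXC6, -4.07 for HOXC10 and -2.82 for HOXC13. HOXB6 (adjusted p = 0.000422), HOXC4 (adjusted p = 0.0016) and HOXC11 (adjusted p = 0.00119) held 3 counts or fewer in at least 1 group, so no size is given for them. The HOXC4 difference rests on Kyse150 knockdown replicate 1, which held 8 counts against 0 in replicate 2: without it the difference was 0.52 (edgeR adjusted p = 0.784). The call of HOXA6 was lost with DESeq2 (adjusted p = 0.1), with a replicate block (1.27, edgeR adjusted p = 0.129) and without Kyse150 knockdown replicate 1 (1.32), Kyse150 control replicate 2 (1.4996), labelled TE11 knockdown replicate 1 (1.54) or TE11 control replicate 3 (1.21). That of HOXB3 was lost without Kyse150 control replicate 2 (0.58), and that of HOXC6 without Kyse150 knockdown replicate 2 (-1.57) or labelled TE11 knockdown replicate 2 (-1.28).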

How the results depend on the processing

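Of the genes called, 4 of 9 in Kyse150, 15 of 19 in TE11, 17 of 20 between the control groups, 6 of 8 between the labelled TE11 knockdown and Kyse150 shNC, and 10 of 14 differences between responses kept their call under every alternative in which they could be tested. The 5 genes called higher in Kyse150 became 1 with DESeq2, which called 4337 of all genes in place of 6771, 3 with all libraries in 1 fit, and 2 to 3 with a library left out. The 8 genes called higher in TE11 became 5 to 8 with a library left out. Between the labelled TE11 knockdown and Kyse150 shNC the 1 gene called higher became 0 with DESeq2 and 0 to 1 with a library left out. A detection threshold of 5 CPM left 8 genes in the labelled TE11 knockdown, 11 in TE11 shNC, 9 in Kyse150 shKDM2A and 9 in Kyse150 shNC. Replicate numbers did not pair the samples (correlation of deviations -0.068 in Kyse150 and -0.0035 in TE11). A replicate block called 5 higher and 4 lower in Kyse150, 7 and 8 in TE11 (replicates 1 and 2 only) and 6 and 7 for the difference. Upper quartile scaling moved the median difference between responses over all genes to -0.18, against -0.06.

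The results that changed sign were not called, apart from HOXC4, and their cause was not tested. For HOXB7 in Kyse150 the log2 fold change became -0.0036 with DESeq2, -0.0031 with RLE scaling, -0.0089 with no filter, -0.0032 with a filter at 1 CPM and -0.0045 with all libraries in 1 fit. Between the labelled TE11 knockdown and Kyse150 shNC, HOXB7 became -0.046 with DESeq2, -0.046 with RLE scaling, -0.086 with upper quartile scaling and -0.0068 with a filter at 1 CPM, HOXC10 -0.021, -0.020 and -0.060 with the first 3 of these, and HOXB4 -0.0098 with upper quartile scaling. With a library left out, the ranges in Kyse150 were -0.18 to 0.58 for HOXA2, -0.30 to 0.12 for HOXA9, -0.13 to 0.14 for HOXB7, -0.019 to 0.19 for HOXC9 and -0.076 to 0.19 for HOXC13. Between the labelled TE11 knockdown and Kyse150 shNC they were -0.18 to 0.38 for HOXA4, -0.073 to 0.27 for HOXB4, -0.11 to 0.17 for HOXB7 and -0.075 to 0.20 for HOXC10. For the difference between responses they were -0.50 to 0.14 for HOXA11 and -7.50 to 0.52 for HOXC4, whose fitted value depends on the prior count.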

Other observations

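Genes flanking the clusters, which the lists held beside the HOX genes, showed 7 of 15 tested higher and 5 lower in TE11, and 5 of 15 higher and 3 lower in Kyse150, near the shares of all genes called (78.1% in TE11 and 48.2% in Kyse150). In TE11 the smallest p-values were those of CBX5 (log2 fold change 0.87, SE 0.07), which encodes the heterochromatin protein HP1 alpha, ATF2 (-0.93, SE 0.10), SKAP2 (0.81, SE 0.08) and SMUG1 (0.96, SE 0.10). In Kyse150 they were those of HNRNPA3 (-0.69, SE 0.06) and HNRNPA1 (-0.57, SE 0.05), which encode RNA-binding proteins, CALCOCO2 (0.58, SE 0.10) and CALCOCO1 (0.92, SE 0.18). The 6 ParaHox genes, among them CDX2 and PDX1, held no count in any library.

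Retinoic acid, a vitamin A derivative that switches on anterior HOX genes in embryos, is made, sensed and broken down by the products of 15 listed genes. In TE11 9 of 11 tested were lower and 0 higher by edgeR, and in Kyse150 6 of 9 were higher and 0 lower, beside 42.2% of all genes called lower in TE11 and 24.8% called higher in Kyse150. DHRS3, a retinaldehyde reductase, was at 6.10 and 6.74 CPM in the libraries labelled TE11 shKDM2A, against 99.3, 90.7 and 89.1 CPM in TE11 shNC (log2 fold change -3.87, SE 0.12), and at 40.7 and 42.1 CPM in Kyse150 shKDM2A, against 10.3 and 12.6 CPM in Kyse150 shNC (1.86, SE 0.15). CYP26B1, which breaks retinoic acid down, was lower in TE11 (-0.68, SE 0.18) and higher in Kyse150 (1.30, SE 0.20), as were the receptors RXRB (-1.40, SE 0.11 in TE11 and 0.74, SE 0.12 in Kyse150) and RARG (-1.87, SE 0.09 in TE11 and 0.28, SE 0.09 in Kyse150). STRA6, a retinol transporter, held no count in the labelled TE11 knockdown, against 48.1, 43.7 and 46.0 CPM in TE11 shNC, and ALDH1A3 was at 197 and 150 CPM, against 695, 695 and 703 CPM. STRA6 passed the filter through TE11 shNC, where it was high, which favoured a call. RARB, CYP26C1 and ALDH1A2 were also at 0 in the labelled knockdown, and any of these tested passed in the same way. The count of 9 lower thus supports no direction.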
